A study of Sus scrofa with 59 samples.

Results

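The 10 genes described here encode enzymes of the tricarboxylic acid (TCA) cycle other than succinate dehydrogenase, the cycle enzyme that is also complex II of the respiratory chain. They were taken by gene symbol from the array's annotation: CS, IDH2, IDH3A, IDH3B, IDH3G, OGDH, SUCLG1, SUCLA2, FH and MDH2. All 10 were among the 6765 genes named on the array, and all 10 passed the filter on dim probe sets that left 4924 genes in the tests. Their transcripts were measured in longissimus dorsi, a long muscle of the back, in 59 pigs with 1 Affymetrix array for each. The pigs came from a cross named LD/LW x Duroc, were raised together with free access to feed and were 170 days old, and their muscle was snap frozen at slaughter. The study's title sets early postmortem expression beside composition and meat quality, but trait values and the sex of each pig were not analysed here. All pigs therefore form 1 group, and each is named by the number in its title, as in pig 72. The questions are how far each enzyme's transcript varied between pigs, which of the enzymes varied together, and which other genes of muscle metabolism varied with them.

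The cycle runs in the mitochondrial matrix and oxidises the acetyl groups of acetyl-CoA, which come from pyruvate, fatty acids and some amino acids. Its dehydrogenases pass electrons to the respiratory chain, and oxidative phosphorylation uses them to make ATP. In skeletal muscle, slow oxidative fibres hold more mitochondria than fast glycolytic fibres, and citrate synthase activity is a customary measure of mitochondrial content. CS joins acetyl-CoA to oxaloacetate to form citrate. Isocitrate is then oxidised either by the NAD-dependent enzyme, built from the catalytic subunit IDH3A and the subunits IDH3B and IDH3G, or by the separate NADP-dependent enzyme IDH2. OGDH is the substrate-oxidising component of the alpha-ketoglutarate dehydrogenase complex. Succinyl-CoA ligase, made of the alpha subunit SUCLG1 and, in its ATP-forming version, the beta subunit SUCLA2, yields succinate. FH hydrates fumarate to malate, and MDH2 oxidises malate back to oxaloacetate.

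Across the 59 arrays the deposited values lay between 2.39 and 15.04 and array medians between 6.23 and 6.30, a range read as log2 intensity. Pearson's r between pairs of arrays lay between 0.969 and 0.995, and no pair of arrays held identical values. Muscle markers were bright in every pig: CKM, the muscle creatine kinase, had a mean log2 value of 14.62, and the sarcomere proteins TTN and NEB had 14.27 and 14.33. The difference between 3′ and 5′ control probe sets, a measure of RNA integrity, averaged 1.06 ± 0.125 log2 (SD) and ranged between 0.861 and 1.65. Its control pairs were unlike: 1 actin pair differed by 3.35 ± 0.28 log2 (SD) and another by 0.49 ± 0.17. The GAPDH pairs differed by between -0.09 and 0.41 log2, with SDs between 0.04 and 0.06. Of the 10 TCA cycle genes 0 rose and 0 fell with the measure, against 3.39% and 6.57% of all probe sets tested. Further probe sets for CS and IDH3A, which are kept apart from these 10 below, did fall with it, by 0.14 (SE 0.03, adjusted p = 0.00175) and 0.31 (SE 0.05, adjusted p = 3.7e-06) log2 per SD in the same limma fit. The levels of different genes are not compared below, since each probe set has its own brightness.

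By their brightest probe sets, all 10 transcripts varied within a narrow band. The span between the lowest and the highest pig was between 0.53 log2 (1.44-fold, SUCLG1) and 1.15 log2 (2.21-fold, IDH3A). The median SD of the 10 genes was 0.159 log2, against 0.197 log2 over all genes tested, and 1 of the 10, IDH3A, had an SD above that median. The further probe sets of CS and IDH3A varied more, between 10.35 and 11.88 log2 (SD 0.29) and between 6.17 and 8.72 log2 (SD 0.49). Both SDs were above that median. With 1 array per pig, technical and biological spread cannot be told apart.

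CS, the enzyme of citrate entry, averaged 12.68 ± 0.18 log2 (SD, n = 59 here and for the genes that follow), with 12.31 in pig 46, a median of 12.66 and 13.29 in pig 72. The next highest value was 13.08 in pig 5, so pig 72 stood 0.63 log2 above the median in the plot of values by pig. A further probe set for CS averaged 11.31 ± 0.29 log2 and followed the brighter one with r = 0.82.

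**Figure D1:**
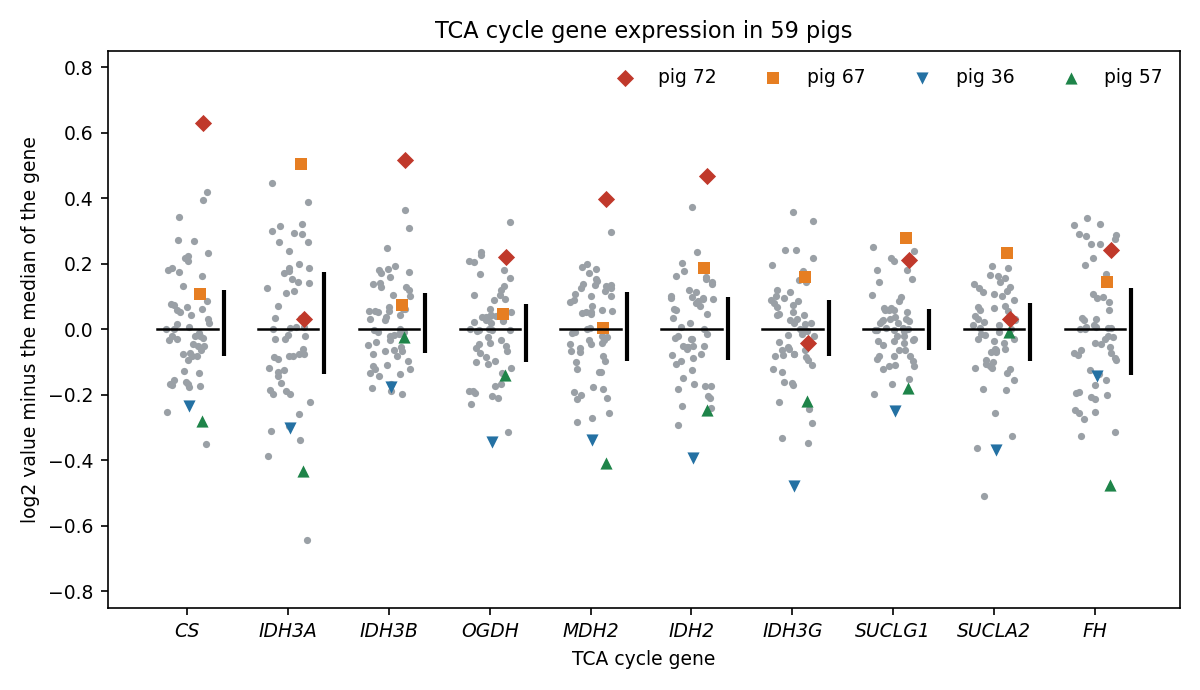
Expression of the 10 TCA cycle genes in 59 pigs, each point 1 pig, on the vertical axis the log2 value minus the gene's median. Black horizontal lines mark the median and black vertical bars the range between the lower and upper quartile. Pig 72 is highest for CS, IDH3B, MDH2 and IDH2, and pigs 36 and 57 lie below the median for all 10 genes.

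Among the isocitrate dehydrogenases, IDH3A averaged 10.32 ± 0.23 log2, with 9.67 in pig 46, a median of 10.32 and 10.82 in pig 67. IDH3B averaged 8.03 ± 0.14 log2, with 7.80 in pig 19, a median of 8.0 and 8.52 in pig 72. IDH3G averaged 9.99 ± 0.16 log2, with 9.52 in pig 36, a median of 10.00 and 10.36 in pig 41. The 3 subunits of this single enzyme thus had their extremes in 6 different pigs. IDH2, the NADP-dependent enzyme, averaged 12.50 ± 0.16 log2, with 12.11 in pig 36, a median of 12.50 and 12.97 in pig 72. A further probe set for IDH3A was dimmer and more variable, at 7.89 ± 0.49 log2, and followed the brighter one with r = 0.76.

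OGDH averaged 9.68 ± 0.14 log2, with 9.34 in pig 36, a median of 9.68 and 10.01 in pig 5. SUCLG1 was the steadiest of the 10, at 12.31 ± 0.12 log2, with 12.05 in pig 36, a median of 12.30 and 12.58 in pig 67. SUCLA2 averaged 11.79 ± 0.15 log2, with 11.30 in pig 37, a median of 11.81 and 12.04 in pig 67. Both subunits of succinyl-CoA ligase were therefore highest in the same pig and lowest in different ones. FH averaged 10.94 ± 0.19 log2, with 10.47 in pig 57, a median of 10.94 and 11.28 in pig 18. MDH2 averaged 12.22 ± 0.16 log2, with 11.82 in pig 57, a median of 12.23 and 12.63 in pig 72.

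A few pigs recurred at the ends of these ranges. Pigs 36 and 57 were each among the lowest 3 pigs for 6 of the 10 genes, and pig 72 was among the highest 3 for CS, IDH2, IDH3B and MDH2. All 10 genes lay above their medians in pigs 64 and 67, and none did in pigs 36, 44 and 57. Other pigs were mixed: pig 52 was among the highest 3 for CS and IDH3B and among the lowest 3 for IDH3G.

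The enzymes of the cycle did not vary as 1 block. A pair of genes is called here where limma, fitted over all probe sets tested with Benjamini-Hochberg adjustment and a threshold of 0.05, passed in both directions of regression. Of the 45 pairs, 16 were called, all of them positive, and 7 more passed in only 1 of their 2 fits. Pearson's r was above 0 for 43 pairs, with a median of 0.31 and a range from -0.06 to 0.73. As background, 11.7% of all probe sets tested rose with CS, 7.92% with IDH2, 7.02% with IDH3A, 8.49% with IDH3B and 19.2% with IDH3G. The shares were 4.71% for OGDH, 10.9% for SUCLG1, 10.6% for SUCLA2, 0.192% for FH and 4.52% for MDH2.

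Most calls fell among CS, IDH3A, IDH3B, OGDH and MDH2, where 9 of 10 pairs were called. The highest correlations of CS were with IDH3B (r = 0.72, rho = 0.66), MDH2 (r = 0.69, rho = 0.63), OGDH (r = 0.68, rho = 0.64) and IDH3A (r = 0.59, rho = 0.61). OGDH and IDH3A, which catalyse consecutive oxidative steps of the cycle, had the highest r of all 45 pairs at 0.73, with rho = 0.75. The permutation p of the 9 pairs lay between 1e-05, the smallest that 100000 resamples can give, and 8e-05 for r, and up to 0.00051 for rho. When the 2 pigs with the most extreme values of 1 gene of each pair were left out, r of the 9 pairs lay between 0.44 and 0.72.

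A further set of calls joined IDH2, IDH3G, SUCLG1 and SUCLA2, where 5 of 6 pairs passed. IDH2 and IDH3G correlated with r = 0.64 and rho = 0.59, IDH3G and SUCLG1 with r = 0.59 and rho = 0.48, and IDH2 and SUCLG1 with r = 0.52 and rho = 0.44. SUCLA2 followed IDH3G (r = 0.48, rho = 0.41) and IDH2 (r = 0.45, rho = 0.47). Permutation p of these 5 lay between 1e-05 and 0.00031 for r and between 2e-05 and 0.0013 for rho, and r without the 2 most extreme pigs lay between 0.41 and 0.66. The calls of SUCLA2 with IDH2 and with IDH3G were lost when the limma fits left out the 2 pigs most extreme in the predictor, and 3 of the 5 calls, those of SUCLA2 and the pair IDH3G and SUCLG1, were lost with the first principal component of the other genes as a covariate.

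**Figure D2:**
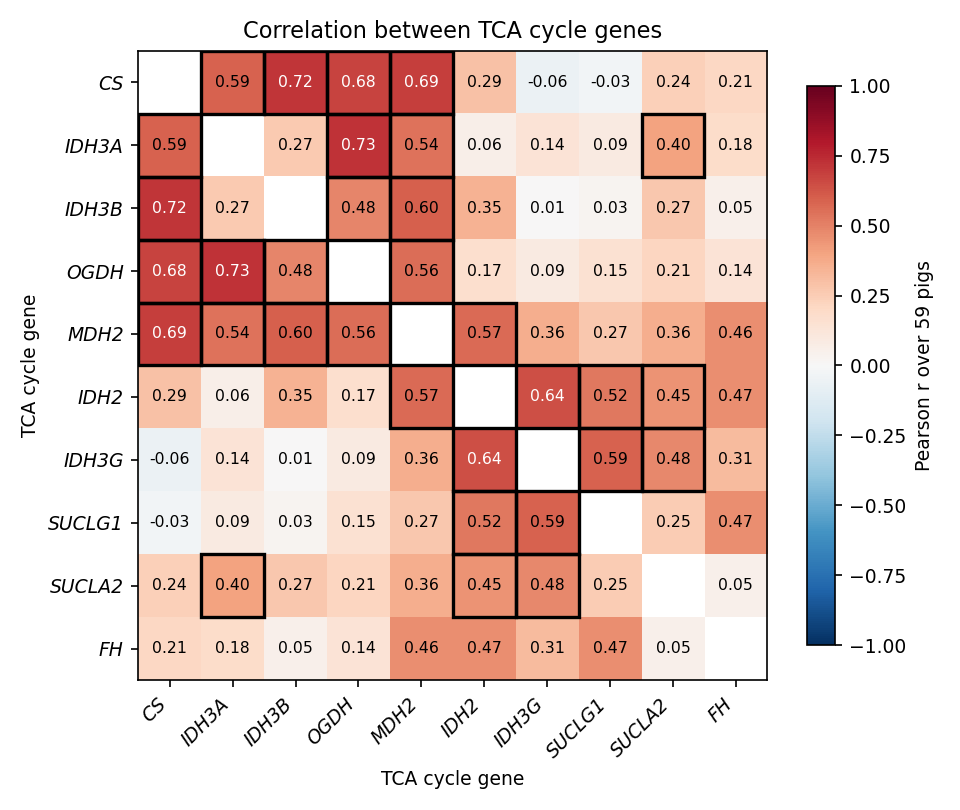
Pearson's r over 59 pigs for each pair of the 10 TCA cycle genes, on a colour scale from -1 to 1, with black frames around the 16 pairs called in both limma fits. Frames fill the corner of CS, IDH3A, IDH3B, OGDH and MDH2 except IDH3A with IDH3B, and most of the square of IDH2, IDH3G, SUCLG1 and SUCLA2, and FH has none.

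Between these sets, which were grouped after their calls were seen, 2 of 20 pairs passed. MDH2 followed IDH2 (r = 0.57, rho = 0.47, permutation p = 2e-05 and 0.00016, r = 0.45 without the 2 most extreme pigs), which gave MDH2 calls with 5 of its 9 partners. IDH3A followed SUCLA2 (r = 0.40, rho = 0.33, permutation p = 0.00154 and 0.0109, r = 0.29 without the 2 most extreme pigs). This call was lost without pig 42, 46 or 67 and was kept in 6 of 9 other settings. It was lost with the mean of probe sets, without the 2 most extreme pigs and on ranks. With the further probe set of IDH3A r was 0.14. CS showed no relation to IDH3G (r = -0.06, rho = -0.02, permutation p = 0.675 and 0.892) or to SUCLG1 (r = -0.03, rho = -0.06, permutation p = 0.839 and 0.636). Whether 2 correlations differ from each other was not tested.

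FH had 0 called pairs of 9. In the fits on FH itself, 0.192% of all probe sets rose and 0.175% fell, and none of the 9 other enzymes was among them. In the fits on IDH2, SUCLG1, IDH3G and MDH2 FH rose, so that 4 of its pairs passed in 1 fit only. The correlation of FH with SUCLG1 was r = 0.47 and rho = 0.51 (permutation p = 0.00028 and 0.00011, r = 0.49 without the 2 most extreme pigs), and with IDH2 it was r = 0.47 and rho = 0.48 (permutation p = 0.00018 for both, r = 0.44 without them). With MDH2 it was r = 0.46 and rho = 0.38 (permutation p = 0.00024 and 0.00317, r = 0.38 without them). These values of r were above those of the called pairs IDH2 with SUCLA2 (0.45) and IDH3A with SUCLA2 (0.40). In the limma fits on FH the adjusted p of SUCLG1, IDH2 and MDH2 was 0.064, 0.0525 and 0.0541. The lack of calls therefore does not set FH apart from those enzymes. Leaving out any of 11 pigs made the call of IDH2 with FH, and leaving out any of 12 pigs made that of FH with MDH2.

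Between subunits of 1 enzyme no pair was called, and r lay between 0.01 and 0.27. IDH3A and IDH3B gave r = 0.27 and rho = 0.30 (permutation p = 0.0427 and 0.0209, limma adjusted p = 0.206 in the fit on IDH3A), IDH3A and IDH3G gave r = 0.14 and rho = 0.17 (permutation p = 0.295 and 0.2), and IDH3B and IDH3G gave r = 0.01 and rho = 0.04 (permutation p = 0.959 and 0.778). The plot of the 3 subunits shows 3 diffuse clouds, in which pig 72 had the highest IDH3B value with IDH3A and IDH3G near their medians. SUCLG1 and SUCLA2 gave r = 0.25 and rho = 0.19 (permutation p = 0.0525 and 0.153). These 4 pairs of subunits were not called in the fits over all pigs or in the 9 other settings tried.

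**Figure D3:**
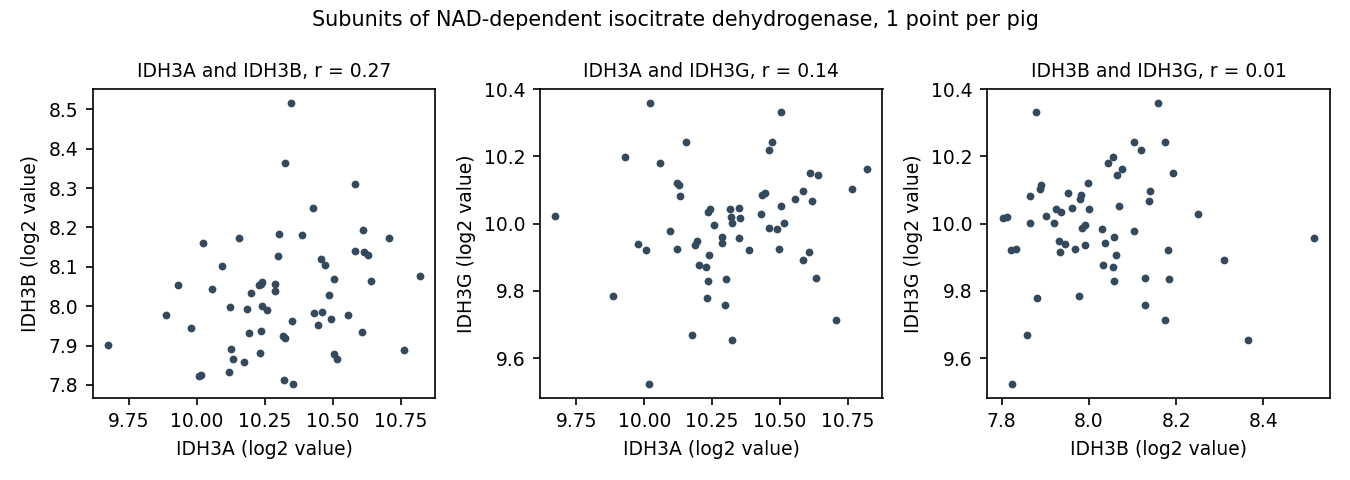
Log2 values of the NAD-dependent isocitrate dehydrogenase subunits in 59 pigs, each point 1 pig, with IDH3A against IDH3B, IDH3A against IDH3G and IDH3B against IDH3G. Pearson's r falls in that order, with 0.27, 0.14 and 0.01.

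The further probe sets changed some of these values. In place of the brighter probe set, the further one of CS raised the median r of CS to the other 9 enzymes to 0.39, against 0.29 with the brighter one. It gave r = 0.78 with IDH3A and r = 0.41 with IDH3B, so that the partner with the higher r changed. The further probe set of IDH3A gave a median r of 0.18, against 0.27 with the brighter one. Its slope on the RNA integrity measure is given above, and the part of RNA integrity in these values was not tested.

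The genes most like each enzyme, the 5 with the highest r over the 59 pigs, are given as a description. For CS they were PDHA1, the catalytic subunit of pyruvate dehydrogenase (r = 0.89), ALAS1, the enzyme that starts heme synthesis (r = 0.87), the ATP synthase subunit ATP5A1 (r = 0.87), IMMT, a protein of the mitochondrial cristae (r = 0.84), and ATP5G3, also of ATP synthase (r = 0.83). For IDH3B they were MDH1, the cytosolic malate dehydrogenase (r = 0.83), the complex I subunits NDUFA11, NDUFB8 and NDUFA9 (r = 0.82, 0.82 and 0.80) and LOC100525869 (r = 0.82). For MDH2 they were SDHA, the flavoprotein of succinate dehydrogenase (r = 0.84), LOC100156879, the ATP synthase subunit ATP5D, the complex I subunit NDUFA10 and ACADVL, an enzyme of fatty acid oxidation. Each of these 3 lists held subunits of complex I or of ATP synthase, and the list of OGDH held ATP5B, also of ATP synthase.

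OGDH was closest to IMMT (r = 0.74), C2H19orf70, IDH3A, SLC35A4 and ATP5B, and IDH3A to GOT2, the mitochondrial aspartate aminotransferase (r = 0.74), OGDH, TP53INP2, GGA2 and IMMT. IDH2 was closest to HADH and ECI1 of fatty acid oxidation (r = 0.80 and 0.76), COQ9 of coenzyme Q synthesis (r = 0.76), MYBPC1, the slow muscle form of myosin binding protein C (r = 0.74), and FHL1 (r = 0.71). SUCLA2 was closest to VDAC1, the channel of the outer mitochondrial membrane (r = 0.72), PDHB of pyruvate dehydrogenase (r = 0.72), SLC25A12, an aspartate and glutamate carrier (r = 0.69), GDF9 and SPTSSA.

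The 5 genes closest to IDH3G were GNG7, a G protein subunit (r = 0.76), ACSS2, an acetyl-CoA synthetase outside mitochondria (r = 0.74), the chaperone BAG6 (r = 0.74), the lipid droplet protein FITM1 (r = 0.74) and ZER1 (r = 0.71). SUCLG1 was closest to LOC100520426 (r = 0.71), COQ9, MAP1LC3A, FAM3A and ARAF. FH had lower values throughout, with ELMOD3 at r = 0.57, ACADS, ECHDC2, PINK1 and ATXN2, the last at r = 0.52.

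Gene list scores place the enzymes in muscle metabolism. A score is the mean of a list's standardised log2 values, scaled to an SD of 1, with none of the 10 enzymes in it. A slope is the change in log2 value per SD of the score, fitted with limma and adjusted by Benjamini-Hochberg over all probe sets tested. In whole muscle, fewer cells of a type and less RNA per cell cannot be told apart.

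With the score of 53 oxidative phosphorylation genes, 6 of the 10 enzymes rose and 0 fell, against 6.58% and 2.3% of all probe sets. CS rose by 0.12 ± 0.02 log2 per SD (SE; adjusted p = 6.4e-06) and IDH3B by 0.12 ± 0.01 (adjusted p = 3.4e-11). MDH2, IDH2, SUCLA2 and OGDH rose by 0.09, 0.09, 0.07 and 0.07. IDH3A had 0.06 ± 0.03 (adjusted p = 0.245), IDH3G 0.04 ± 0.02 (adjusted p = 0.197), SUCLG1 0.03 ± 0.02 (adjusted p = 0.338) and FH 0.01 ± 0.03 (adjusted p = 0.862). The median slope of the 10 was 0.07, against -0.0032 over all probe sets. The call of CS was not made with its further probe set, which had 0.09 ± 0.04 (adjusted p = 0.119) and r = 0.31 to the score, against r = 0.64 for the brighter one. Without the 2 pigs of the most extreme scores IDH2 (adjusted p = 0.106) and OGDH (adjusted p = 0.11) did not pass. Of 7 endothelial genes 2 rose and 0 fell with this score.

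More calls came with fatty acid oxidation. With the score of 17 genes of that pathway, which supplies acetyl-CoA to the cycle, 8 of the 10 enzymes rose and 0 fell, against 5.85% and 2.9% of all probe sets. MDH2 rose by 0.12 ± 0.01 log2 per SD (adjusted p = 9.7e-10), IDH2 by 0.12 ± 0.01 (adjusted p = 3.1e-09) and CS by 0.11 ± 0.02 (adjusted p = 1.7e-05). FH rose here too, by 0.08 ± 0.02 (adjusted p = 0.0223), as did IDH3G, IDH3B, SUCLA2 and OGDH by 0.08, 0.09, 0.07 and 0.07. IDH3A with 0.07 ± 0.03 (adjusted p = 0.0969) and SUCLG1 with 0.04 ± 0.02 (adjusted p = 0.0734) did not pass. The oxidative phosphorylation and fatty acid oxidation scores correlated with r = 0.77, so these are not separate observations. OGDH (adjusted p = 0.134) and FH (adjusted p = 0.0977) did not pass without the 2 pigs of the most extreme scores, and SUCLA2 and FH did not pass on ranks. The further probe set of CS rose with this score as well, by 0.15 ± 0.03 (adjusted p = 0.00079). Of the 7 endothelial genes 3 rose and 0 fell with the score, and their part in the slopes was not tested.

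**Figure D4:**
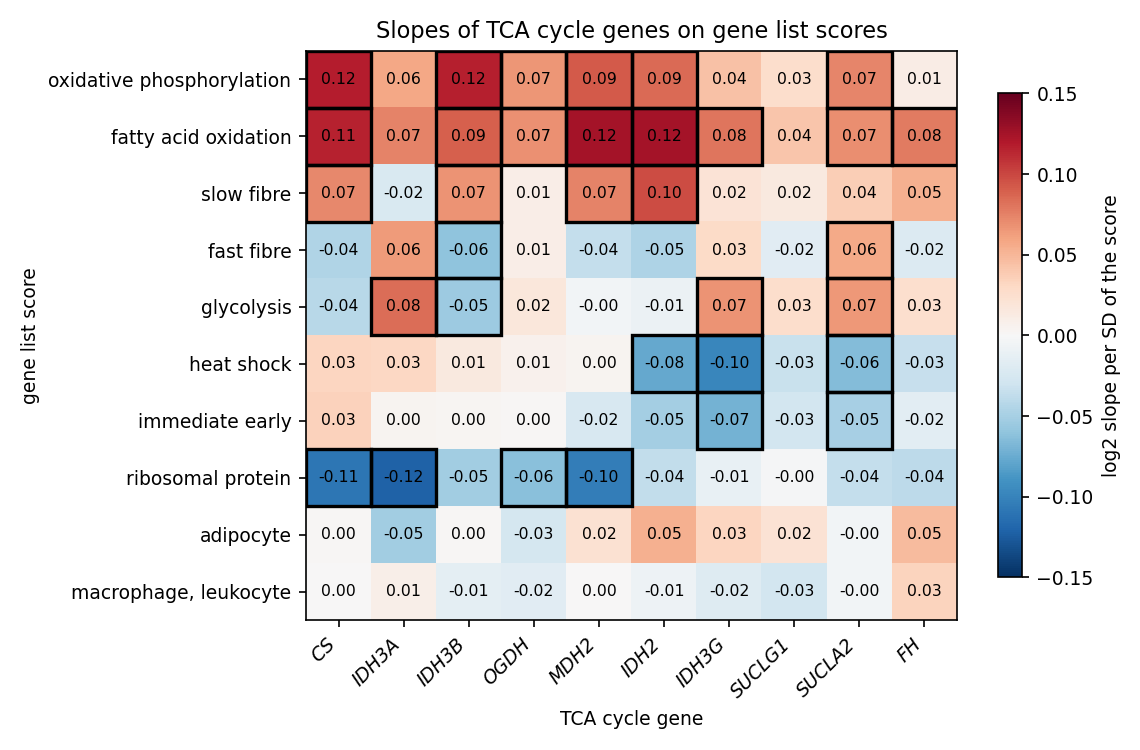
Slopes of the 10 TCA cycle genes on 10 gene list scores, as log2 change per SD of the score over 59 pigs, with black frames around slopes whose limma adjusted p passed 0.05. Frames are dense in the rows of oxidative phosphorylation and fatty acid oxidation, and absent in those of adipocyte and of macrophage and leukocyte genes.

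With 8 slow fibre genes, IDH2 rose by 0.10 ± 0.02 log2 per SD (adjusted p = 0.000138), and MDH2, IDH3B and CS by 0.07 each, making 4 higher and 0 lower against 2.93% and 2.05% of all probe sets. Without pig 72, which had the highest value of all 4, IDH2 was the only one of the 10 that passed, and the call of CS was lost in 15 of the 59 fits that each left out 1 pig and was not made with its further probe set (0.05 ± 0.04, adjusted p = 0.562). With 6 fast fibre genes, SUCLA2 rose by 0.06 ± 0.02 (adjusted p = 0.0189) and IDH3B fell by 0.06 (SE 0.02, adjusted p = 0.00833), and IDH3B did not pass without pig 72. These were 1 higher and 1 lower of 10, near the shares of all probe sets, 15.3% and 8.7%. With the first principal component of the other genes as a covariate neither passed, while other enzymes of the 10 did. Of the 7 endothelial genes 1 rose with the slow fibre score and 4 fell with the fast fibre score, and their part in the slopes was not tested.

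With 9 glycolysis genes, IDH3A rose by 0.08 ± 0.03 log2 per SD (adjusted p = 0.0191), SUCLA2 by 0.07 ± 0.02 (adjusted p = 0.00363) and IDH3G by 0.07 ± 0.02 (adjusted p = 0.00687). IDH3B fell by 0.05 (SE 0.02, adjusted p = 0.0154), a call lost without pig 52 or pig 72. That made 3 higher and 1 lower of 10, not far from the 17.5% and 13.7% of all probe sets. IDH3A did not pass with the mean of its 2 probe sets or with the further one (0.04 ± 0.06, adjusted p = 0.655). With the first principal component as a covariate IDH3A passed (adjusted p = 0.00062) while SUCLA2, IDH3G and IDH3B did not. An enzyme not called in the fit over all arrays passed in that setting as well. The fast fibre and glycolysis scores correlated with r = 0.83, and 2 of the 7 endothelial genes fell with the glycolysis score.

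The opposite slopes of IDH3 subunits were tested directly, as the log2 difference of 2 subunits fitted on each score, a test chosen after the slopes were seen. On the glycolysis score IDH3A minus IDH3B rose by 0.14 ± 0.03 log2 per SD (adjusted p = 3.5e-05) and IDH3B minus IDH3G fell by 0.12 (SE 0.02, adjusted p = 6.5e-05). On the fast fibre score IDH3A minus IDH3B rose by 0.12 ± 0.03 (adjusted p = 0.000425), and SUCLG1 minus SUCLA2 fell by 0.07 (SE 0.02, adjusted p = 0.00391). These 4 differences passed without pig 72 as well. They were taken with the brighter probe set of IDH3A, and the further one was not run. No difference between subunits was fitted with the first principal component of the other genes as a covariate. The slope of IDH3B minus IDH3G on the fast fibre score, -0.09 ± 0.03 (adjusted p = 0.00818), had an adjusted p of 0.0754 without that pig. On the oxidative phosphorylation and fatty acid oxidation scores no difference between subunits passed. The smallest adjusted p there was 0.0764, for IDH3B minus IDH3G on oxidative phosphorylation.

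Heat shock genes, many of which encode chaperones, gave calls in a share of the enzymes near that of all probe sets. With the score of 14 heat shock genes, IDH3G fell by 0.10 log2 per SD (SE 0.02, adjusted p = 4.9e-06), IDH2 by 0.08 (SE 0.02, adjusted p = 0.000776) and SUCLA2 by 0.06 (SE 0.02, adjusted p = 0.00258). These were 0 higher and 3 lower of 10, not far from the share of all probe sets, of which 22.9% rose and 21.5% fell. IDH3A minus IDH3G and IDH3B minus IDH3G, by the brightest probe sets, rose with this score by 0.13 ± 0.03 (adjusted p = 0.000338) and 0.11 ± 0.02 (adjusted p = 0.000114). The first principal component of the probe sets outside all lists held 16.7% of their variance. It correlated with the heat shock score at r = -0.83. With this component as a covariate 0 of the 3 calls remained, and the subunit differences were not fitted with it. The further probe set of IDH3A rose with the heat shock score by 0.18 ± 0.06 (adjusted p = 0.00783), while the brighter one had 0.03 ± 0.03 (adjusted p = 0.415). Probe sets of 1 gene thus had unlike slopes, so a difference between probe sets need not be one between subunits.

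With the score of 11 immediate early genes, IDH3G fell by 0.07 (SE 0.02, adjusted p = 0.00667) and SUCLA2 by 0.05 (SE 0.02, adjusted p = 0.0476), against 10.8% of probe sets higher and 10.9% lower. Neither passed without the 2 pigs of the most extreme scores, and the call of SUCLA2 was lost in 22 of the 59 fits that each left out 1 pig. The mean log2 level of the immediate early genes spanned 2.92 between pigs and that of the heat shock genes 1.64. Both were wider than the span of the brightest probe set of any of the 10 enzymes. The further probe set of IDH3A, between 6.17 and 8.72, spanned more than the heat shock mean. A list mean and a single probe set are unlike measures.

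Cytosolic ribosomal protein genes ran the other way from part of the cycle. With the score of 59 such genes, IDH3A fell by 0.12 log2 per SD (SE 0.03, adjusted p = 0.00166), CS by 0.11 (SE 0.02, adjusted p = 0.000251), MDH2 by 0.10 (SE 0.02, adjusted p = 2.4e-05) and OGDH by 0.06 (SE 0.02, adjusted p = 0.0159). These were 0 higher and 4 lower, against 5.38% and 3.63% of all probe sets. IDH3B, with -0.05 ± 0.02 (adjusted p = 0.0559), lay just outside the threshold, OGDH did not pass after arrays were re-centred on their medians, and IDH3A minus IDH3G fell by 0.11 (SE 0.03, adjusted p = 0.0174). The further probe sets of IDH3A and CS fell too, by 0.26 (SE 0.05, adjusted p = 0.00111) and 0.19 (SE 0.03, adjusted p = 6.5e-06). The mean level of the ribosomal protein genes spanned 0.22 log2 between pigs.

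The scores of fat and immune cell markers gave no calls over all 59 pigs. Of the 10 genes 0 rose and 0 fell with the score of 5 adipocyte genes, against 2.55% and 4.11% of all probe sets, while the mean log2 level of those genes lay between 8.14 and 9.37. Of the 10 genes 0 rose and 0 fell with the score of 8 macrophage and leukocyte genes, against 6.17% and 1.55%, while their mean log2 level lay between 6.25 and 8.10. Without the 2 pigs of the most extreme scores, IDH2 and FH rose with the adipocyte score (adjusted p = 0.0198 and 0.0351).

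When the oxidative phosphorylation, slow fibre, glycolysis and heat shock scores entered 1 model, the calls were partly shared between scores, with IDH3A and MDH2 called on 3 of the 4. On oxidative phosphorylation CS, IDH3A, IDH3B, OGDH, SUCLA2 and MDH2 rose (6 of 10 higher and 0 lower, against 6.88% and 1.93% of all probe sets), IDH3A now by 0.12 ± 0.03 (adjusted p = 0.00217). On the slow fibre score IDH2 alone of the 10 rose, by 0.08 ± 0.02 (adjusted p = 0.0374), against 0.337% of all probe sets higher and 0.413% lower. On glycolysis IDH3A, SUCLA2 and MDH2 rose (9.72% of all probe sets higher and 2.95% lower), by 0.17 ± 0.03, 0.10 ± 0.02 and 0.07 ± 0.02. On heat shock CS, IDH3A and MDH2 rose and IDH2 and IDH3G fell, 3 higher and 2 lower of 10, near the 22.1% and 15.9% of all probe sets. Every one of these calls was also made without the 2 pigs of the most extreme oxidative phosphorylation scores. In the fits on the heat shock score alone none of the 10 rose. SUCLA2, which fell there, had a joint slope of -0.002 ± 0.02 (adjusted p = 0.935). The scores in the model correlate, glycolysis with heat shock at r = -0.46 and oxidative phosphorylation with slow fibre at r = 0.53. Joint slopes therefore depend on which scores are held.

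Genes around the cycle were then set against CS, since CS stands for citrate entry. CS was taken here from its brighter probe set. Its further probe set, with r = 0.31 to the oxidative phosphorylation score, was not used alone as a predictor. How far the counts below depend on that choice was therefore not tested with it. Across all probe sets 11.7% rose and 8.6% fell with CS, and the median slope was -0.00081 log2 per SD of CS. Of the 4 remaining cycle genes tested, DLST and DLD, the further components of the alpha-ketoglutarate dehydrogenase complex, rose by 0.20 ± 0.02 (adjusted p = 5e-11) and 0.10 ± 0.02 (adjusted p = 4.4e-05). The cytosolic aconitase ACO1 had -0.0022 ± 0.02 (adjusted p = 0.952), and SUCLG2, the GTP-forming beta subunit of succinyl-CoA ligase, had -0.07 ± 0.03 (adjusted p = 0.0718).

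Of 5 succinate dehydrogenase genes 4 rose and 0 fell. SDHA rose by 0.16 ± 0.02 log2 per SD of CS (adjusted p = 2.6e-11), SDHB by 0.14 ± 0.02, SDHD by 0.10 ± 0.01 and the assembly factor SDHAF2 by 0.09 ± 0.02. SDHC, a membrane anchor, had 0.05 ± 0.03 (adjusted p = 0.299).

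Pyruvate dehydrogenase makes acetyl-CoA from pyruvate, and all 6 tested genes of the complex and its regulators passed. PDHA1 rose by 0.29 ± 0.02 log2 per SD of CS (adjusted p = 1.5e-17), DLAT by 0.15 ± 0.02 and PDHB by 0.06 ± 0.02. The phosphatase PDP2 rose by 0.12 ± 0.03, and of the inhibitory kinases PDK4 rose by 0.12 ± 0.03 (adjusted p = 0.00451) while PDK3 fell by 0.15 (SE 0.04, adjusted p = 0.0104). Genes that activate and that inhibit the complex were therefore both among those that rose.

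**Figure D5:**
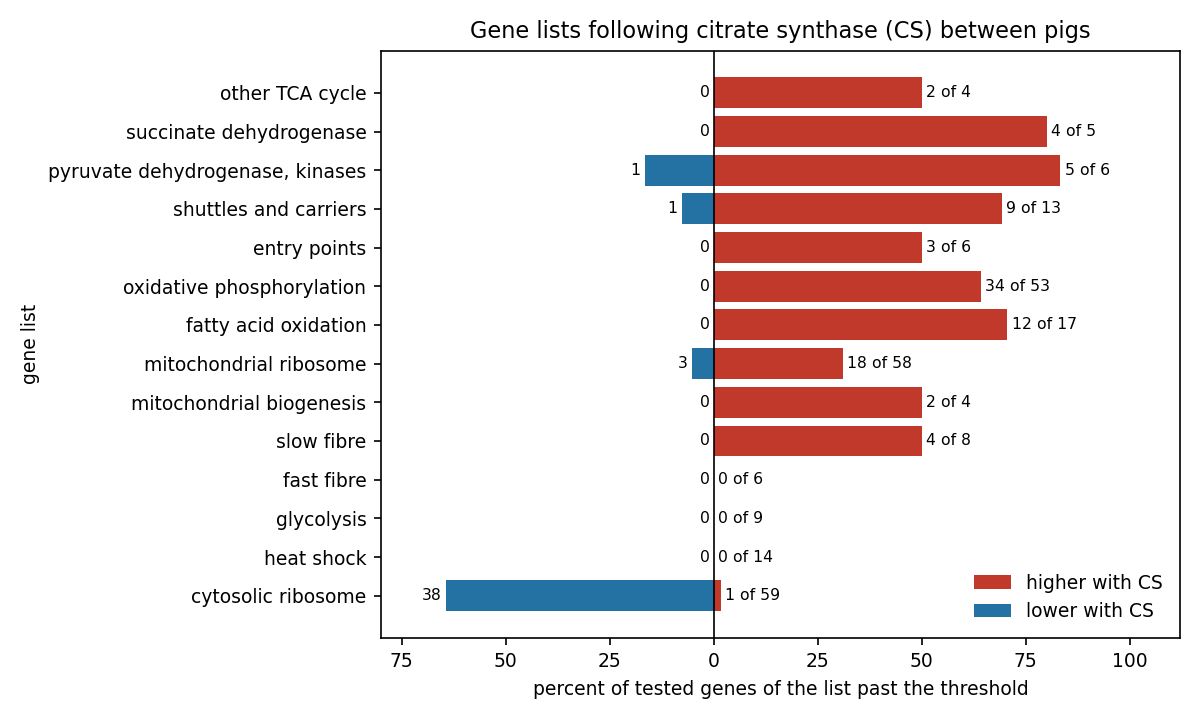
Share of the tested genes of each list that rose (right, red) or fell (left, blue) with CS over 59 pigs, in percent. Counts stand beside the bars, and CS is given by its brighter probe set. The longer bars point right for the mitochondrial lists and left for the cytosolic ribosome, with 38 of 59 genes lower, and there is no bar for fast fibre, glycolysis and heat shock genes.

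Among the shuttles, carriers and cytosolic counterparts of the cycle, 9 of 13 rose and 1 fell. GOT1 and GOT2, the aspartate aminotransferases of the malate-aspartate shuttle, rose by 0.41 ± 0.04 and 0.13 ± 0.02 log2 per SD of CS, and MDH1 rose by 0.18 ± 0.02. The citrate carrier SLC25A1 rose by 0.19 ± 0.03, the oxoglutarate carrier SLC25A11 by 0.11 ± 0.02 and the pyruvate carrier subunits MPC1 and MPC2 by 0.04 ± 0.01 and 0.10 ± 0.02. PC, pyruvate carboxylase, which refills oxaloacetate, fell by 0.13 (SE 0.04, adjusted p = 0.00395). Of 6 genes of other entry points, BCKDHA and DBT of branched-chain amino acid breakdown and PCCA of propionate breakdown passed, and 0 of the 6 passed without pig 72.

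Larger mitochondrial lists followed CS in part. Of 53 oxidative phosphorylation genes 34 rose and 0 fell, with a median slope of 0.07, led by ATP5A1, ATP5G3 and NDUFA9. Of 17 fatty acid oxidation genes 12 rose and 0 fell, with a median of 0.09, among them ACADVL (0.25 ± 0.03), ETFDH (0.17 ± 0.02) and HADHA (0.17 ± 0.02). Mitochondrial ribosome genes were less uniform: 18 of 58 rose, led by MRPL2, MRPS17 and MRPL28, and 3 fell. PPARGC1A, a coactivator of mitochondrial biogenesis, rose by 0.34 ± 0.10 (adjusted p = 0.0118), and TFAM, which packages and transcribes mitochondrial DNA, by 0.08 ± 0.02 (adjusted p = 4.9e-05). PPRC1 and TFB1M of the same list did not pass, and 1 of the 4 genes passed without pig 72.

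Of 8 slow fibre genes 4 rose with CS, MYH7, TNNC1, TNNI1 and TNNT1, and 1 did without pig 72. None of 6 fast fibre, 9 glycolysis and 14 heat shock genes passed in either direction. Of 59 cytosolic ribosomal protein genes 1 rose and 38 fell, by small amounts, with RPS10, RPL12 and RPL38 falling by 0.05 each, and 18 passed without the 2 pigs of the most extreme CS values. Of 7 endothelial genes PECAM1 alone rose, by 0.12 ± 0.03 (adjusted p = 0.00514), and of 5 adipocyte genes LPL alone, by 0.24 ± 0.06 (adjusted p = 0.00347), an enzyme that muscle fibres also make. Their part in the slopes on CS was not tested.

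The other enzymes were followed by differing counts of the same lists, with some traits shared between them. IDH3B was followed by 45 higher and 1 lower of the 53 oxidative phosphorylation genes and by 7 of 8 slow fibre genes, while 2 of 6 fast fibre and 2 of 9 glycolysis genes fell with it. IDH2 was followed by 14 of 17 fatty acid oxidation genes and 7 of 8 slow fibre genes, and 11 of 14 heat shock genes fell with it. The background was 8.49% higher and 5.57% lower for IDH3B, and 7.92% and 11% for IDH2.

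IDH3G was followed by 13 higher and 2 lower of the oxidative phosphorylation genes, and all 14 heat shock genes and 7 of 11 immediate early genes fell with it. With SUCLA2 31 of 53 oxidative phosphorylation genes rose and 10 of 14 heat shock genes fell, and with SUCLG1 11 of 53 oxidative phosphorylation genes rose and 5 of 14 heat shock genes fell. The background was 19.2% higher and 18.4% lower for IDH3G, 10.6% and 8.06% for SUCLA2, and 10.9% and 13.3% for SUCLG1. The 13 of 53 oxidative phosphorylation genes higher with IDH3G are not far from its share. Lower heat shock genes were a trait that IDH2, IDH3G, SUCLA2 and SUCLG1 shared. These counts come from fits without the first principal component as a covariate. That component correlated with the heat shock score at r = -0.83 and with the immediate early score at r = -0.55.

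MDH2 was followed by 27 of 53 oxidative phosphorylation and 14 of 17 fatty acid oxidation genes, and 29 of 59 ribosomal protein genes fell with it (4.52% of all probe sets higher and 1.33% lower). OGDH was followed by 23 and 7 genes of the same mitochondrial lists, with 11 ribosomal protein genes lower (4.71% of all probe sets higher and 0.852% lower), and IDH3A by 13 and 3, with 18 lower (7.02% higher and 2.08% lower). With FH 3 of 17 fatty acid oxidation genes rose, and 0 of 53 oxidative phosphorylation genes passed (0.192% of all probe sets higher and 0.175% lower).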

How the data were processed

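Total RNA from longissimus dorsi was hybridised as biotin-labelled cRNA to 1 array for each pig, per the labels' protocols. The deposited table holds 1 value per probe set and array, read as log2 from its range, since no label or header states the base. The authors used GCRMA, which corrects background, normalises by quantiles and summarises probes, per the submitters' processing notes, with no version given. Of 24123 probe sets, 124 controls were left out. The platform annotation named 1 gene for 10069, several for 198 and none for 13856, and only the first kind was named here. Probe sets with a mean of at least 6.28 log2, the median of all means, were tested (11972), and the brightest tested probe set stood for a gene.

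Slopes were fitted with limma 3.58.1 (lmFit and eBayes) in R 4.3.3 over all probe sets tested, leaving out those of the predictor's own genes, with two-sided p adjusted by Benjamini-Hochberg and a threshold of 0.05. The fits were run on simulated data with known slopes on the oxidative phosphorylation score. The noise there was independent between probe sets, while in the real data genes vary together. That run therefore cannot show how often calls are false here. Pearson and Spearman permutation tests used 100000 two-sided resamples. Other steps ran in Python 3.11.15 (pandas 2.3.3, numpy 2.4.6, scipy 1.17.1), with figures by matplotlib 3.10.9. The 10 enzymes and the gene lists were chosen with earlier results of these data known. That TCA cycle and oxidative phosphorylation genes vary together was among those results and is not independent support. Genes named besides the 10 enzymes are the 5 with the highest r to each, any gene of the short lists around the cycle, and the 3 with the highest absolute r to CS in the longer lists, while slow fibre, endothelial and adipocyte genes named outside this rule were chosen after their values were seen. Older symbols of ATP synthase genes and of MUT were matched by hand. Nothing in the labels says how arrays were batched. Array values count no molecules, and the number of arrays, measurement noise and the choice of probe set limit the precision. Alternatives were the mean of a gene's probe sets, no filter or a filter at the 75th percentile, re-centred arrays, quantile normalisation, leaving out each array or the 2 most extreme in the predictor, the RNA measure or the first principal component as a covariate, and ranks.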

Additional observations from a re-analysis of the deposited data

How the results depend on the processing

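Over settings that keep all or most arrays, 323 of 363 alternatives for the 33 called slopes kept their call and their direction, 40 kept only the direction, and 0 reversed. With 1 array left out, 1905 of 1947 kept the call. The 16 called pairs were 15 to 21 with 1 array left out and 13 to 21 under the other settings.

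Counts of the 10 enzymes called that moved by more than 1.5 times follow. Without the 2 arrays most extreme in the predictor, the slow fibre count was 1 (4 in the fit over all arrays), fast fibre 1 (2), immediate early 0 (2), adipocyte 2 (0) and the fit on SUCLA2 0 (4). With the first principal component as a covariate, glycolysis gave 2 (4), heat shock 0 (3), immediate early 0, the fit on IDH3B 5 (3), on IDH3G 2 (5) and on FH 1 (0). Ranks gave fast fibre 1, immediate early 0 and the fit on SUCLA2 2. Immediate early was 1 with no filter, with the 75th percentile filter, with re-centred arrays and with the RNA measure as a covariate. The fit on FH gave 2 at the 75th percentile filter, 3 after quantile normalisation and 1 with the RNA measure. The cause was not tested.

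Of list genes called on CS, mitochondrial biogenesis gave 1 (2) without the 2 arrays and with the principal component, and slow fibre 1 (4) without the 2 arrays, with ranks and with the mean of probe sets. Ribosomal protein genes gave 18 (39) without the 2 arrays and 25 with re-centred arrays.

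With 1 array left out, the counts ranged over 1 to 4 for slow fibre, 1 to 3 for immediate early, 0 to 1 for adipocyte, 3 to 5 for the fit on IDH3G and 0 to 3 for FH. On CS they ranged over 0 to 3 for entry genes, 1 to 2 for mitochondrial biogenesis and 1 to 5 for slow fibre genes. Leaving out pig 72 gave the low end for the slow fibre score and for all 3 lists on CS, leaving out pig 36 gave 3 for IDH3G, and leaving out pig 15 gave 1 for adipocyte.

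The macrophage and leukocyte score at the 75th percentile filter was not run, since fewer than 3 of its genes were left. No paired analysis was possible because all arrays form 1 group. GCRMA compresses differences of dim genes, and values near the top of the range are compressed too. Each enzyme's values rest on 1 probe set, and CS and IDH3A have a further one whose values differ. With it, an alternative chosen after seeing the data and not counted above, 3 of the 6 called slopes of CS and IDH3A were called.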
